A study of Mus musculus with 3 samples.

Results

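The genes described here are those of the cytosolic ribosome, the particle of RNA and protein that reads messenger RNA and links amino acids into proteins. They were chosen by symbol, taking names that begin with Rpl or Rps followed by a digit and leaving out the Rps6 kinases and annotated pseudogenes. This rule found 86 of the 34289 features listed in the deposited matrices. Of these, 43 encode core proteins of the large subunit and 30 core proteins of the small subunit. The other 13 are paralogues, retrotransposed copies or genes of similar name, such as Rps27l, Rpl22l1 and Rps19bp1, whose product binds Rps19. The rule misses some subunit genes with other symbols, of which Fau and Rpsa are given beside the members.

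The study profiled single cells from the ear epidermis of male Cd1 mice, enriched for Langerhans cells, the antigen-presenting cells of the epidermis. It comprised 3 Chromium libraries, 1 per group: untreated mice, which had received Nair (a depilatory cream) and nothing else, mice given croton oil, an irritant, with acetone and olive oil, and mice given multiple microneedle punches. Tissue of both treated groups was taken 48 hours after treatment began. The number of animals behind a library is not stated in the sources used here. With 1 library a group there was no spread between samples and no test, and treatment and library cannot be told apart. Intervals below are exact 95% intervals that cover counting error only.

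Ribosomal protein genes are among the most abundantly transcribed genes of a mammalian cell, and their products are made in matched amounts. Their messages carry a run of pyrimidines (C or T) at the extreme 5′ end, the terminal oligopyrimidine or TOP motif, through which mTOR signalling and the protein Larp1 regulate their translation and stability. In dendritic cells, activation is known to change both the rate of protein synthesis and the transcripts that are translated.

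Start-site sequence was read for the members at the extremes of the croton oil comparison, because the TOP motif is the sequence feature the family is known for. The RefSeq promoter table (build GRCm38.p6) held 54 of the 73 core genes. Each line gives 30 bases around the annotated start, 5′ to 3′ on the gene's strand, with capitals marking the longest unbroken run of C or T that overlaps a base within 3 of the start. Where several starts were listed for a gene, the one with the longest run was taken. Runs were read on the gene's strand only, and a run is a description of the letters, not a functional site. The window of Rps21 lies at chr2:180257369-180257398 (plus strand), Rps27 at chr3:90213629-90213658 (minus), Rpl35a at chr16:33056472-33056501 (plus) and Rpl39 at chrX:37085203-37085232 (minus). These 4 had the lowest values with croton oil.
Rps21: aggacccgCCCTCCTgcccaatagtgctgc
Rps27: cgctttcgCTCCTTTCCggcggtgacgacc
Rpl35a: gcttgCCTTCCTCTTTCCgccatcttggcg
Rpl39: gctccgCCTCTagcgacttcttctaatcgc

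The window of the highest core gene, Rps2, lies at chr17:24720053-24720082 (plus). The paralogues Rps27l and Rpl22l1, which were higher with croton oil, have theirs at chr9:66946076-66946105 (plus) and chr3:28805498-28805527 (plus).
Rps2: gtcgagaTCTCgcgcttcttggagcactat
Rps27l: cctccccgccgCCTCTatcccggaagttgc
Rpl22l1: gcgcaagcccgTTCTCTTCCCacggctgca

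Runs of at least 6 pyrimidines at the start were found in 25 of the 54 core genes (46.3%), against 19.3% of the 27025 genes in the table and 18.8% of the mitochondrial ribosomal protein genes. At the RefSeq starts the run was 13 bases in Rpl35a and 4 in Rps2, and at the canonical starts of GENCODE release 39 it was 9 and 20. At the GENCODE starts the share with such a run was lower, 20.6% of 73 core genes against 17.1% of 21656 genes. The RefSeq run is the longest over the listed starts of a gene, while GENCODE gave only the canonical start. The genes covered also differ, so the shares are not like for like. Across the 54 genes another measure was used, the longest run anywhere in the 60 bases around a RefSeq start. It had a Spearman correlation of 0.03 with the croton oil change and 0.06 with the microneedle change. The run at the GENCODE start had -0.22 and -0.25 across all 73 genes. These correlations are descriptions, since the genes of 1 family do not vary independently.

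The libraries held 9876, 8241 and 6945 barcodes in the order untreated, croton oil and microneedle, with between 117178809 and 127666928 UMIs each (unique molecular identifiers, each standing for 1 captured transcript). After quality filters 9054, 7626 and 6479 cells remained. Langerhans cells were taken as those with at least 2% of UMIs from Cd74, H2-Aa, H2-Ab1 and H2-Eb1 and at least 2 Epcam UMIs, which gave 8651, 5922 and 5295 cells. Cells near that gate numbered 232, 595 and 160. Cd207, which encodes langerin, stood at 568, 313 and 463 CPM (UMIs of a gene scaled to a common total) in the gate cells without a Ccr7 UMI. Libraries shared between 13 and 32 barcodes. Cell classes outside the gate were named from clusters built without the ribosomal protein genes.

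Langerhans gate cells of both treated libraries devoted a smaller share of their transcripts to ribosomal proteins than untreated gate cells did. In gate cells without a Ccr7 UMI, the members took 10.6% of all UMIs in the untreated library (8632 cells), 8.22% after croton oil (5638 cells) and 7.88% after microneedle punches (5227 cells). Counting intervals were at most 0.02 percentage points wide. The log2 ratio of the summed share to the untreated library was -0.36 for croton oil and -0.42 for microneedle, or 0.779 and 0.747 times the untreated share. Cells overlapped between libraries: the middle 50% of cells ran from 9.14 to 12.3% in the untreated library, from 6.87 to 9.52% after croton oil and from 6.65 to 9.40% after microneedle punches. Both comparisons use the same untreated library. Cells outside the gate in clusters with Langerhans cell markers, without a Ccr7 UMI, did not show this order. Their shares were 2.82% untreated (152 cells), 7.91% after croton oil (446 cells) and 5.02% after microneedle punches (135 cells). Their median depths were 2735, 9088 and 4887 UMIs.

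**Figure D1:**
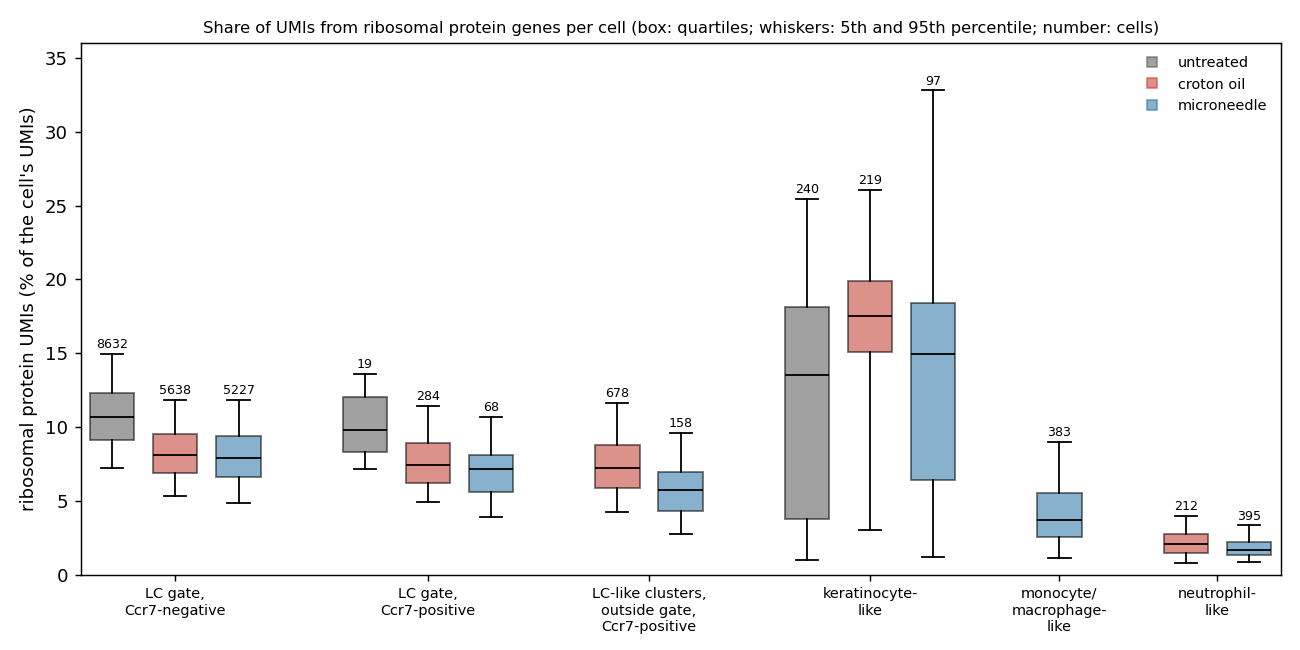
Percentage of each cell's UMIs that came from the 86 ribosomal protein genes, by cell class (x axis) and library (colour); boxes are quartiles with the median, whiskers the 5th and 95th percentiles, and numbers the cells. Gate cells without Ccr7 have medians of 10.7, 8.13 and 7.93%, the medians of keratinocyte-like cells lie above them, and those of neutrophil-like cells are the lowest shown.

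The absolute number of member UMIs did not follow the share in the microneedle library. A median gate cell held 1218 member UMIs in the untreated, 1011 in the croton oil and 1377 in the microneedle library, beside median totals of 11513, 12524 and 17312 UMIs. In each library the share was higher in the shallowest than in the deepest quartile of cells, going from 11.9 to 9.80%, from 8.87 to 8.04% and from 9.04 to 7.18%. The decline was not even: croton oil cells had 8.03 and 8.04% in the third and the deepest quartile, 153 microneedle cells of 4000 to 8000 UMIs had 8.58% against 8.83% at 8000 to 16000, and 130 untreated cells of 2000 to 4000 UMIs had 7.92%. Among cells of 8000 to 16000 UMIs the shares were 10.7, 8.32 and 8.83%. The microneedle ratio was then -0.28 instead of -0.42, while that of croton oil was -0.37.

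**Figure D2:**
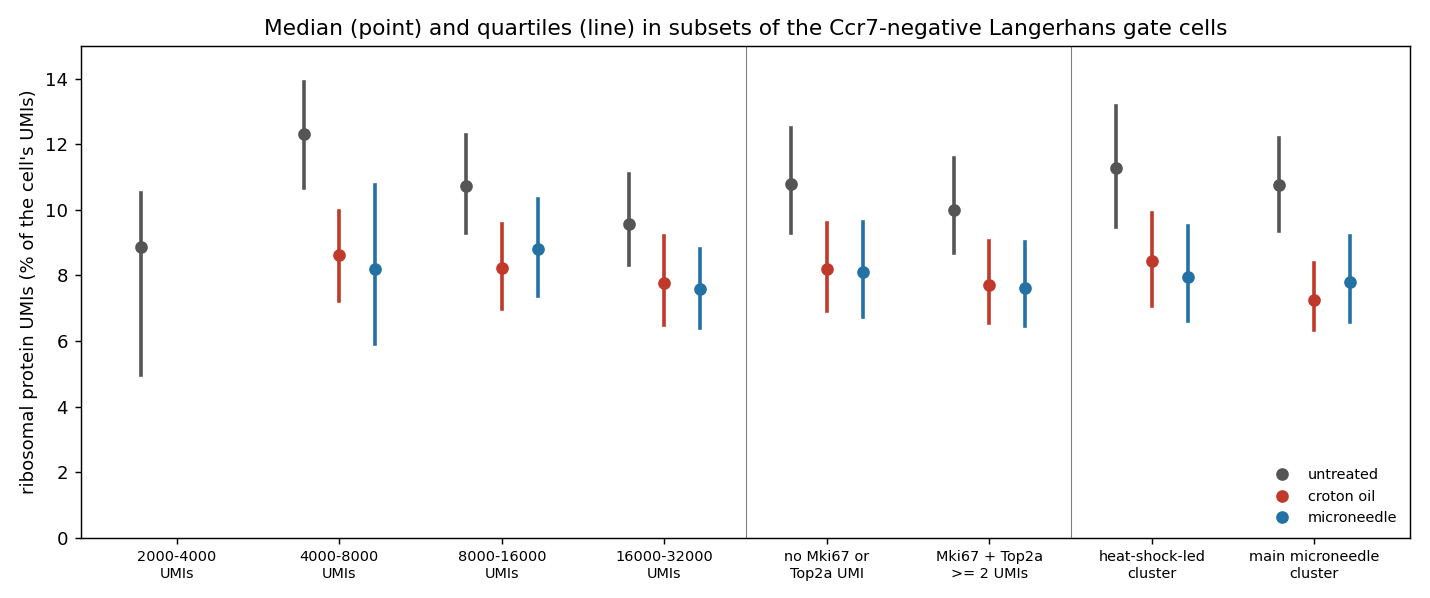
Median (point) and quartiles (line) of the ribosomal protein share of UMIs in subsets of the gate cells without Ccr7, coloured by library; the x axis gives bands of total UMIs, cells with and without cell cycle UMIs, and clusters. In every subset with all 3 libraries the untreated median is the highest, and the croton oil and microneedle medians change places between subsets.

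The lower share was present in cells with and without proliferation transcripts. Cells with at least 2 UMIs of Mki67 and Top2a, markers of dividing cells, gave 9.98, 7.93 and 7.61%, and cells with none gave 10.7, 8.29 and 8.05%. A cluster led by heat-shock genes, which can be induced by tissue dissociation, held cells of all libraries and gave 11.2, 8.69 and 7.99%. In the cluster that held most microneedle cells, 74 untreated cells had 10.7% and 122 croton oil cells 7.32%. Conversely, microneedle cells that fell into the 2 main untreated clusters had 8.51% (303 cells) and 9.24% (198 cells), against 10.4 and 10.7% in the untreated cells there. The largest untreated cluster held 2 croton oil cells, and the largest croton oil cluster held 3 untreated cells.

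Transcripts of other cell types differed between the same gate cells. The 9 keratinocyte markers summed to 268, 217 and 53.8 CPM, the 8 T cell markers to 3.55, 64.0 and 11.5 CPM, and the 7 neutrophil markers to 163, 75.7 and 108 CPM. The 9 monocyte and macrophage markers summed to 41.1, 126 and 82.4 CPM. Single genes made up much of these sums. The highest neutrophil marker alone stood at 152, 24.2 and 71.1 CPM, and the highest monocyte and macrophage marker at 20.7, 115 and 69.1 CPM. The 5 markers of NK cells and innate lymphoid cells summed to 219, 920 and 596 CPM, nearly all from Il7r (216, 914 and 590 CPM), with Ncr1 and Eomes at no more than 1 UMI in each library. The 6 fibroblast markers summed to at most 0.515 CPM in any of the libraries. Mitochondrial genes made up a median of 1.54, 1.60 and 1.38% of UMIs. The part of these differences in the ribosomal protein share was not tested.

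Gene by gene, the difference was spread over nearly the whole core set and was below 2-fold for each gene at the main settings. Changes are log2 ratios of CPM plus 5 for genes with a mean of at least 20 CPM, and a gene is called higher or lower from 0.32 on that scale, a rise of 25% or a fall of 20%. All 73 core genes and 5 of the other 13 members passed that filter. After croton oil 43 of the 78 were lower and 3 higher, where 28.9 and 26.9% of all 6336 genes tested were. After microneedle punches 55 were lower and 1 higher, where 16.7 and 18.6% of 6344 genes were. No member changed 2-fold in either comparison at the main settings, while Rps21 with croton oil reached -1.002 under the alternatives run. Of all genes, 5.05% were that much higher and 4.51% lower with croton oil, and 3.37 and 1.58% with microneedle. The median core change was -0.37 with croton oil and -0.43 with microneedle, against -0.03 and 0.03 over all genes tested. The core genes also varied less among themselves, with SDs of 0.21 and 0.17 against 0.70 and 0.49 over all genes. In cells of 8000 to 16000 UMIs the microneedle count of lower members was 27 of 78 instead of 55, where 16.2% of 6343 genes were lower.

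**Figure D3:**
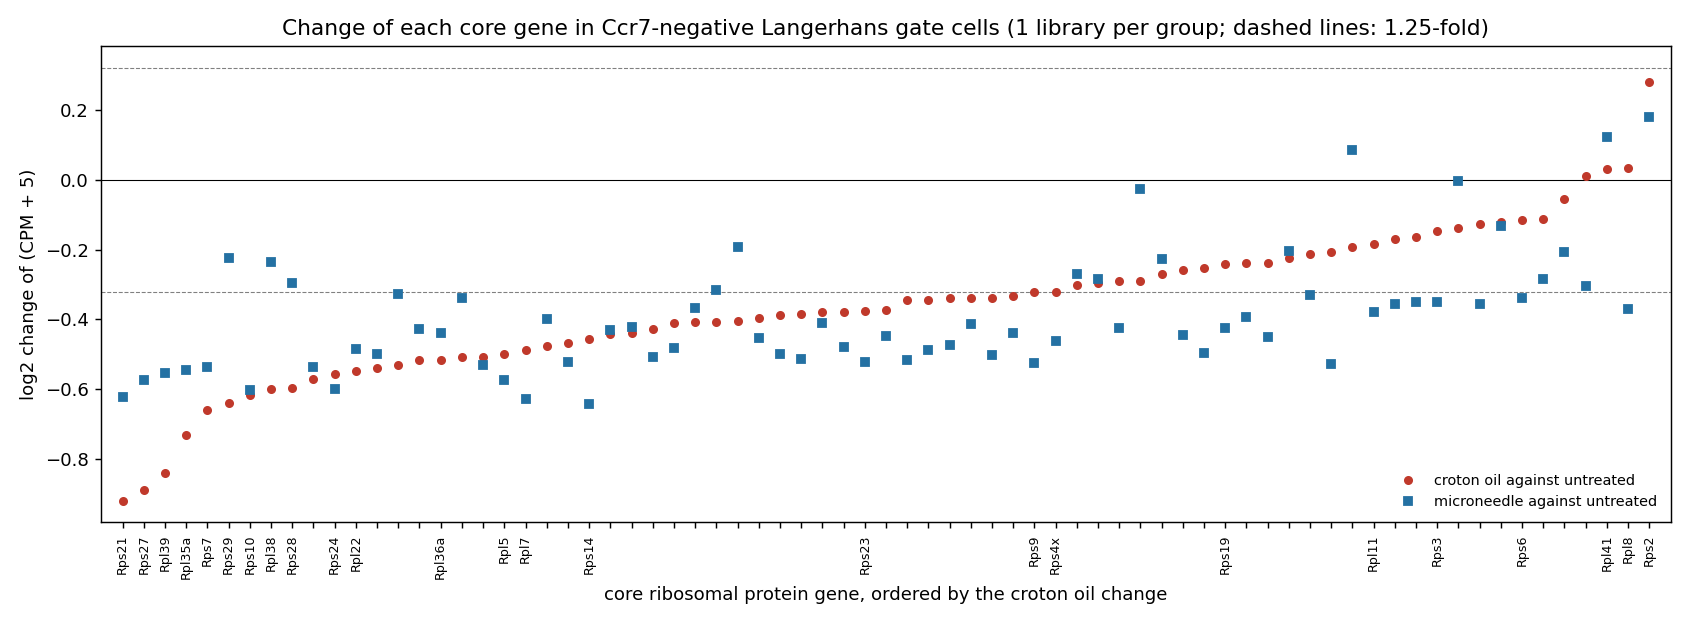
Change of each of the 73 core genes (x axis, ordered by the croton oil value, with names for genes described in the text) as the log2 ratio of CPM plus 5 to the untreated library, in gate cells without Ccr7; circles are croton oil, squares microneedle, dashed lines the call at 0.32. Values run from -0.92 (Rps21) to 0.28 (Rps2) with croton oil and from -0.64 (Rps14) to 0.18 (Rps2) with microneedle.

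In the large subunit 27 of 43 genes fell after croton oil (median -0.38) and 31 after microneedle punches (median -0.41). In the small subunit 16 of 30 fell after croton oil (median -0.34) and 24 after microneedle punches (median -0.49). Of all genes tested 28.9 and 16.7% fell. Large-subunit UMIs numbered 1.13, 1.14 and 1.17 for each small-subunit UMI in the order untreated, croton oil and microneedle.

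The 2 lowest small-subunit genes after croton oil, Rps21 and Rps27, have short coding sequences (249 and 252 bases). Rps21 (ENSMUSG00000039001), which takes part in the maturation of small-subunit RNA, stood at 1841 CPM (95% Poisson interval 1833 to 1849) in untreated cells, 971 (964 to 978) after croton oil and 1195 (1188 to 1202) after microneedle punches. The intervals do not overlap, and the changes were -0.92 and -0.62. Rps27 (ENSMUSG00000090733), a zinc-finger protein of the small subunit, went from 1238 CPM to 666 and 831, changes of -0.89 and -0.57. Rps7, which also binds the Trp53 regulator Mdm2, went from 1115 to 704 and 768 CPM.

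In the large subunit, Rpl39 and Rpl35a were lowest after croton oil. Rpl39 lines the tunnel through which the new protein leaves the ribosome, and stood at 1718, 957 and 1170 CPM. Rpl35a stood at 2061, 1240 and 1411 CPM. Their croton oil changes were -0.84 and -0.73, and their microneedle changes -0.55 and -0.54.

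After microneedle punches the lowest genes were others, except for Rps21. Rps14, near the site where messenger RNA leaves the small subunit, stood at 2148 CPM in untreated and 1374 in microneedle cells, a change of -0.64. Rpl7 went from 1572 to 1016 CPM, Rps24 from 2789 to 1840 and Rps10 from 473 to 310. Their changes of -0.60 to -0.63 lay close together.

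By position in the ribosome, 7 of the 9 proteins listed at the exit tunnel were lower in each comparison, with medians of -0.51 and -0.41. Of all 73 core genes 43 and 55 were lower, and of all genes tested 28.9 and 16.7%. At the messenger RNA exit site, Rps14 was lower in both comparisons. Rps28 stood at 822, 542 and 669 CPM, fell by 0.60 with croton oil and missed the call with microneedle, at -0.30. Rps26 missed it in both comparisons, at -0.27 and -0.23. Of the 3 listed at the messenger RNA entry and decoding site, Rps23 was lower in both comparisons. Rps3 had -0.15 with croton oil, which missed the call, and -0.35 with microneedle. Rps2, the other gene listed there, was the highest core gene in both, at 831 CPM in untreated cells, 1010 after croton oil and 943 after microneedle punches. Its changes of 0.28 and 0.18 did not reach the call, but departed from the core median by more than 1.5-fold in both comparisons.

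Rpl5 and Rpl11 form a particle with the smallest ribosomal RNA and, when free, restrain Mdm2. Rpl5 stood at 730, 516 and 490 CPM, changes of -0.50 and -0.57. Rpl11 stood at 1666, 1464 and 1281 CPM, a change of -0.19 with croton oil, which missed the call, and of -0.38 with microneedle. Rps6, the classical substrate of the S6 kinases, had -0.11 and -0.34. Fau, which encodes a small-subunit protein fused to a ubiquitin-like domain, stood at 3470, 2560 and 2609 CPM and was lower in both comparisons. Rpsa, the laminin-binding small-subunit protein, had -0.02 with croton oil and -0.44 with microneedle. In cells of 8000 to 16000 UMIs the microneedle calls of Rpl11 (-0.21), Rps6 (-0.22), Fau (-0.22) and Rpsa (-0.27) were lost, while that of Rpl5 held under the alternatives run (-0.62 to -0.50).

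With croton oil, the paralogues Rps27l and Rpl22l1 rose while the genes they resemble fell. Rps27l (ENSMUSG00000036781), a Trp53-inducible paralogue of Rps27, stood at 111 CPM (109 to 113) without treatment, 204 (201 to 207) after croton oil and 147 (144 to 149) after microneedle punches. It rose by 0.85 and 0.39 on the log2 scale and was the highest member in both comparisons, while Rps27 fell by 0.89 and 0.57. Rpl22l1 stood at 195, 255 and 178 CPM, a rise of 0.38 with croton oil and a value of -0.12 with microneedle. Rpl22, which binds RNA outside the ribosome and restrains Rpl22l1, stood at 829, 565 and 591 CPM and fell by 0.55 and 0.48. In cells of 8000 to 16000 UMIs its microneedle value of -0.320 was just short of the call at 0.322.

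The remaining paralogues stood at no more than 125 CPM. Rpl7l1, a ribosome biogenesis protein related to Rpl7, stood at 41.6, 54.2 and 42.9 CPM and rose by 0.35 with croton oil, a call lost with the gate at 5% MHC class II, at 0.19. Rps4l stood at 61.1, 74.0 and 51.7 CPM, with 0.26 and -0.22, beside Rps4x at 2435, 1949 and 1765 CPM. Rpl36al stood at 109, 125 and 113 CPM, and its parent Rpl36a at 672, 468 and 494. Rpl39l and Rpl3l, known for testis and muscle, were at no more than 2.35 and 2.01 CPM, and Rpl10l had no UMI, where the floor of 3 counts stands at 0.0390 CPM in croton oil cells. The 8 members under the filter were Rpl10l, Rpl39l, Rpl3l, Rpl27rt, Rpl37rt, Rps27rt, Rps23rg1 and Rps19bp1. Close copies (Rps27rt beside Rps27, Rps4l beside Rps4x, Rpl36al beside Rpl36a) and genes with many pseudogenes (Rpl13a, Rpl29) are uncertain, since reads that fit several places may have been dropped or divided.

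The treatments differed from each other in which core genes were lowest. Compared directly, the core median of croton oil against microneedle was 0.07, with 4 of 78 members higher and 2 lower, where 15.1 and 21.1% of 6305 genes were. The order of the summed shares turned with depth, from 8.22 against 7.88% in all cells to 8.32 against 8.83% in cells of 8000 to 16000 UMIs. Rpl8, a large-subunit protein next to the site of peptide bond formation, stood at 1364, 1396 and 1055 CPM, and was 0.40 higher after croton oil than after microneedle punches. Rps27l, Rpl22l1 and Rps4l were the other 3 higher members. Rps29 (1842, 1181 and 1576 CPM) and Rpl38 (746, 491 and 634 CPM) were the lower pair, at -0.42 and -0.36 against microneedle. Rpl38 is known for its part in the translation of Hox messages.

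Core genes with a short coding sequence were lower after croton oil than those with a long one. Across the 73 genes the Spearman correlation of the change with coding length was 0.47 with croton oil, -0.02 with microneedle and 0.58 for croton oil against microneedle. The 24 genes of 138 to 411 coding bases had a median croton oil change of -0.42, with 18 lower, and the 24 of 420 to 564 bases one of -0.40, with 15 lower. The 25 genes of 576 to 1257 bases had a median of -0.30, with 10 lower, where 28.9% of all genes were. With microneedle the medians of the same sets were -0.40, -0.50 and -0.41, with 15, 21 and 19 lower, where 16.7% of all genes were. Rpl41, with the shortest coding sequence (138 bases), went against this order, at 0.03 and 0.12. The correlation with the length of the whole messenger RNA was 0.12 and 0.07. Correlations with coding length were not limited to this comparison. In keratinocyte-like cells they were 0.26 with croton oil and -0.01 with microneedle, and between keratinocyte-like and gate cells of 1 library 0.26 to 0.38. Between monocyte or macrophage-like and gate cells the value was -0.40. Genes are not independent replicates here, and each value rests on 1 library a group.

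**Figure D4:**
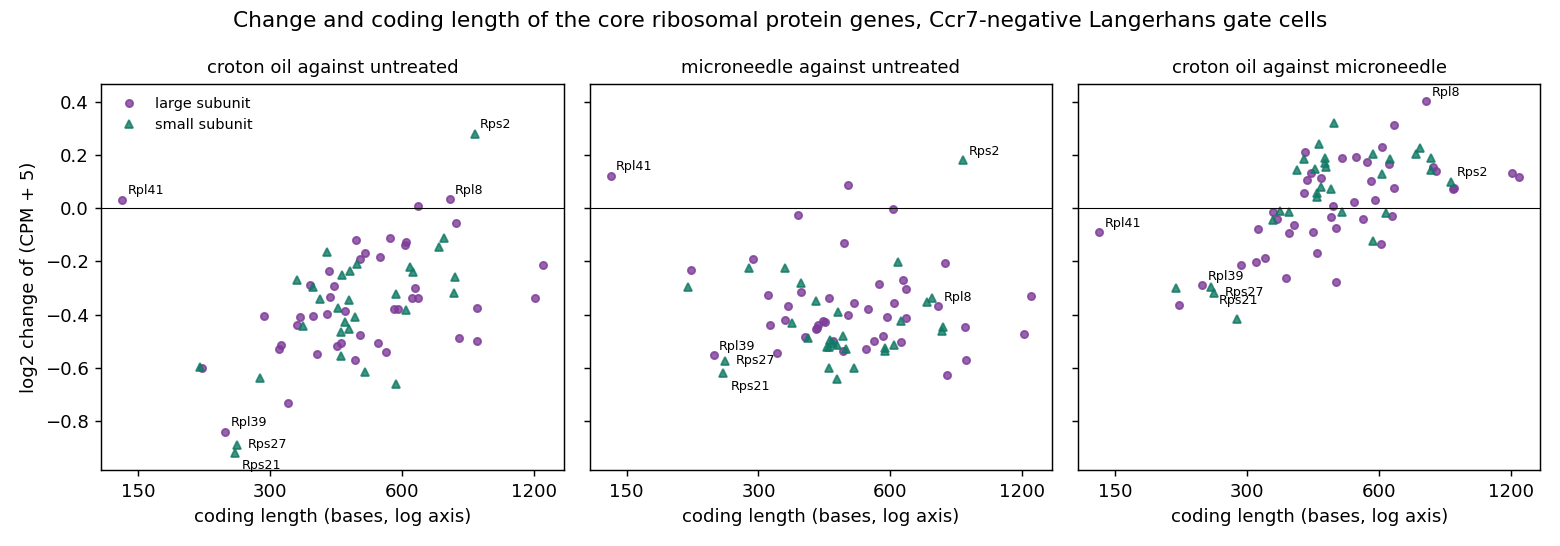
Change of each core gene (log2 ratio of CPM plus 5, y axis) against its coding length in bases (log x axis) in gate cells without Ccr7, for croton oil and microneedle against untreated and for croton oil against microneedle; circles are large-subunit and triangles small-subunit genes. Rps21, Rps27 and Rpl39 lie at the lower left of the croton oil panel, and Rpl41 lies apart from them.

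Ccr7 encodes the chemokine receptor that guides Langerhans cells to the lymph node. Gate cells with at least 1 Ccr7 UMI numbered 19 in the untreated, 284 in the croton oil and 68 in the microneedle library. Their ribosomal protein shares were 10.4, 7.60 and 6.83%. Within the croton oil library the ratio to Ccr7-negative cells was -0.11, and within the microneedle library -0.21. Without the removal of high doublet scores the croton oil ratio was -0.061. With cells thinned to 3000 UMIs and Ccr7 read after thinning, the microneedle shares were 6.44% (27 cells) with Ccr7 and 8.11% without. The 19 untreated cells are too few to compare. Cells with Ccr7 were deeper, with medians of 14442 against 12524 UMIs after croton oil and 20438 against 17312 after microneedle punches. The T cell markers summed to 285 CPM in the Ccr7-positive croton oil cells against 64.0 in the negative ones, and to 101 against 11.5 CPM in the microneedle cells. The part of depth and of these markers was not tested.

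Few members passed the call between Ccr7-positive and Ccr7-negative gate cells. After croton oil 1 of 79 was higher and none lower, where 9.97 and 16.0% of 6247 genes were. The lower members numbered 12 when positive cells inside the Fscn1-led cluster were compared with negative cells outside it, 3 with Ccr7 at 2 UMIs and 4 when thinned. Of all genes 30.7, 30.8 and 32.3% were lower under these settings. After microneedle punches none of 78 was higher and 3 were lower, where 13.2 and 11.1% of 6406 genes were. Medians over the core genes were -0.13 and -0.21, against -0.06 and -0.01 over all genes. The higher member was Rps19, which is needed for small-subunit maturation and is the gene most often mutated in Diamond-Blackfan anaemia. Rps19 stood at 1392 CPM in Ccr7-negative and 1881 (1841 to 1922) in Ccr7-positive croton oil cells, a change of 0.43. In microneedle cells it stood at 1225 and 1329 CPM, a change of 0.12. Rpsa, outside the symbol rule, rose by 0.36 with Ccr7 in croton oil cells and stood at 1330 and 1358 CPM in microneedle cells. Among the lower values with Ccr7 after croton oil were those of Rps9, at -0.28, and Rpl37, at -0.26, neither past the call. The 3 lower with microneedle were Rps4l, Rpl29 and Rpl36al, all uncertain for the reason given above.

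Most Ccr7-positive cells of the treated libraries lay outside the gate. Clusters with Langerhans cell markers held 678 such cells after croton oil and 158 after microneedle punches. Their Cd74 level (4428 and 1551 CPM) was below that of gate cells, as the gate's minimum of MHC class II largely fixes. They had less Cd207 (142 and 155 CPM) and more of the dendritic cell markers Flt3 (464 and 575 CPM) and Irf8. Fscn1 and Ccr7 led the cluster that held most of them. Their ribosomal protein shares were 7.38 and 5.71%, ratios to the Ccr7-negative gate cells of -0.16 and -0.47. Malat1 made up a median of 2.26 and 4.28% of their UMIs, against 1.21 and 1.38% in those gate cells. Mitochondrial genes made up 1.44 and 0.884%, against 1.60 and 1.38%. The part of these values in the lower share was not tested.

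In these cells Rps19 stood apart from the rest of the family. It was at 2914 CPM (2880 to 2948) after croton oil and 2518 (2457 to 2580) after microneedle punches, against 1392 and 1225 in the gate cells without Ccr7. The changes were 1.06 and 1.04, and no other core gene differed 2-fold. Of all genes tested, 8.66% were at least 2-fold higher and 12.2% lower after croton oil, and 10.7 and 14.1% after microneedle punches. Rps27l was also higher, at 379 and 290 CPM, and Rpsa at 2890 and 1956 CPM. Among all 78 members tested, 3 were higher and 22 lower after croton oil, where 20.7 and 35.3% of 6214 genes were. After microneedle punches 4 were higher and 64 lower, where 24.0 and 38.3% of 6331 genes were. Rps18, at the head of the small subunit, was the lowest core gene in both libraries, at 784 against 1140 CPM and at 542 against 1024 CPM.

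Keratinocyte-like cells, the epithelial cells of the epidermis that remained after enrichment, did not show the lower share. They numbered 240, 219 and 97, and their members took 15.2% of UMIs in the untreated library, 17.4% after croton oil and 15.2% after microneedle punches. The ratios to the untreated library were 0.20 and 0.00. Single cells were spread widely, with quartiles of 3.75 and 18.1% in the untreated, 15.1 and 19.9% in the croton oil and 6.39 and 18.4% in the microneedle library. Among cells of 16000 to 64000 UMIs the shares were 15.3, 18.8 and 15.3% (136, 97 and 44 cells). The makeup of this class also differed between libraries. Krt14, a keratin of basal cells, stood at 4747, 17479 and 15386 CPM, and the 5 cell cycle markers summed to 62.0, 868 and 540 CPM. The 8 Langerhans cell markers summed to 6449, 4286 and 5336 CPM, lowest where the ribosomal protein share was highest, and the 7 neutrophil markers to 71.7, 2132 and 1293 CPM. Malat1 made up a median of 1.80, 0.546 and 1.88% of UMIs in the same order, and mitochondrial genes 0.839, 1.29 and 1.09%. The part of these differences was not tested.

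In the croton oil keratinocyte-like cells, 31 of 80 members were higher and 4 lower, where 33.1 and 36.6% of 6907 genes were. The core median was 0.22, against -0.04 over all genes. Rps2 was the highest core gene, at 1870, 3901 and 3149 CPM in the order untreated, croton oil and microneedle. Rpl41 stood at 2014, 3788 and 3100 CPM, and Rps6 at 1226, 2019 and 1522 CPM. The 4 lower genes were Rps28, Rpl39, Rps24 and Rps29. Rps28, which sits at the messenger RNA exit site, went from 1429 to 992 CPM after croton oil. After microneedle punches 8 members were higher and 3 lower, where 32.2 and 22.3% of 7050 genes were.

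Against Langerhans gate cells of the same library, keratinocyte-like cells had higher levels of most members, and of nearly all in the treated libraries. In the untreated library 58 of 79 members were higher and none lower, where 33.7 and 39.2% of 6922 genes were. Rps2 and Rpl10a were among the highest, at 1870 against 831 and 2450 against 1092 CPM. Rpl35a (1710 against 2061 CPM) and Rps9 (2831 against 3103 CPM) lay below the gate cells. In the croton oil library 77 of 79 were higher and none lower, where 38.4 and 37.9% of 6793 genes were. In the microneedle library 76 of 79 were higher and none lower, where 38.1 and 34.6% of 7033 genes were.

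Mitochondrial ribosomal protein genes and biogenesis genes did not fall with the core genes in Langerhans cells. Of 78 mitochondrial ribosomal protein genes, 57 passed the filter with croton oil and 46 of them rose and none fell, with a median of 0.52, where 26.9 and 28.9% of all genes tested did. Mrpl20 went from 62.6 to 127 CPM. With microneedle 12 of 51 rose, a share near that of all genes (18.6%), and none fell, where 16.7% did, with a median of 0.16. Ribosome biogenesis genes, which make and process ribosomal RNA, had 2 higher and 2 lower of 20 with croton oil and 1 and 1 of 21 with microneedle, below those shares of all genes. Gnl3, a nucleolar GTPase, had the lowest value in both, at 127, 79.3 and 79.9 CPM.

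Of 22 translation factors and other genes whose messages also carry a TOP motif, 7 fell and 3 rose with croton oil (median -0.13). The number that fell is near the share of all genes (28.9%). With microneedle 10 fell, where 16.7% of all genes did, and none rose (median -0.29). Eef1a1, the elongation factor that brings transfer RNA to the ribosome, stood at 3988, 3298 and 3103 CPM, changes of -0.27 and -0.36. Nap1l1, a histone chaperone, went from 637 CPM to 265 and 379, and Eif4a1, the helicase of translation initiation, from 340 to 536 and 365. Among regulators of translation, Ddit4, an inhibitor of mTOR signalling, stood at 22.7, 48.3 and 42.8 CPM. Myc, which drives ribosome production in many cells, stood at 25.6, 16.4 and 14.7 CPM. Of the 18 regulators tested, 4 rose and 4 fell with croton oil, no more than the share of all genes. With microneedle 7 rose, where 18.6% of all genes did, and 3 fell, near the 16.7% of all genes.

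**Figure D5:**
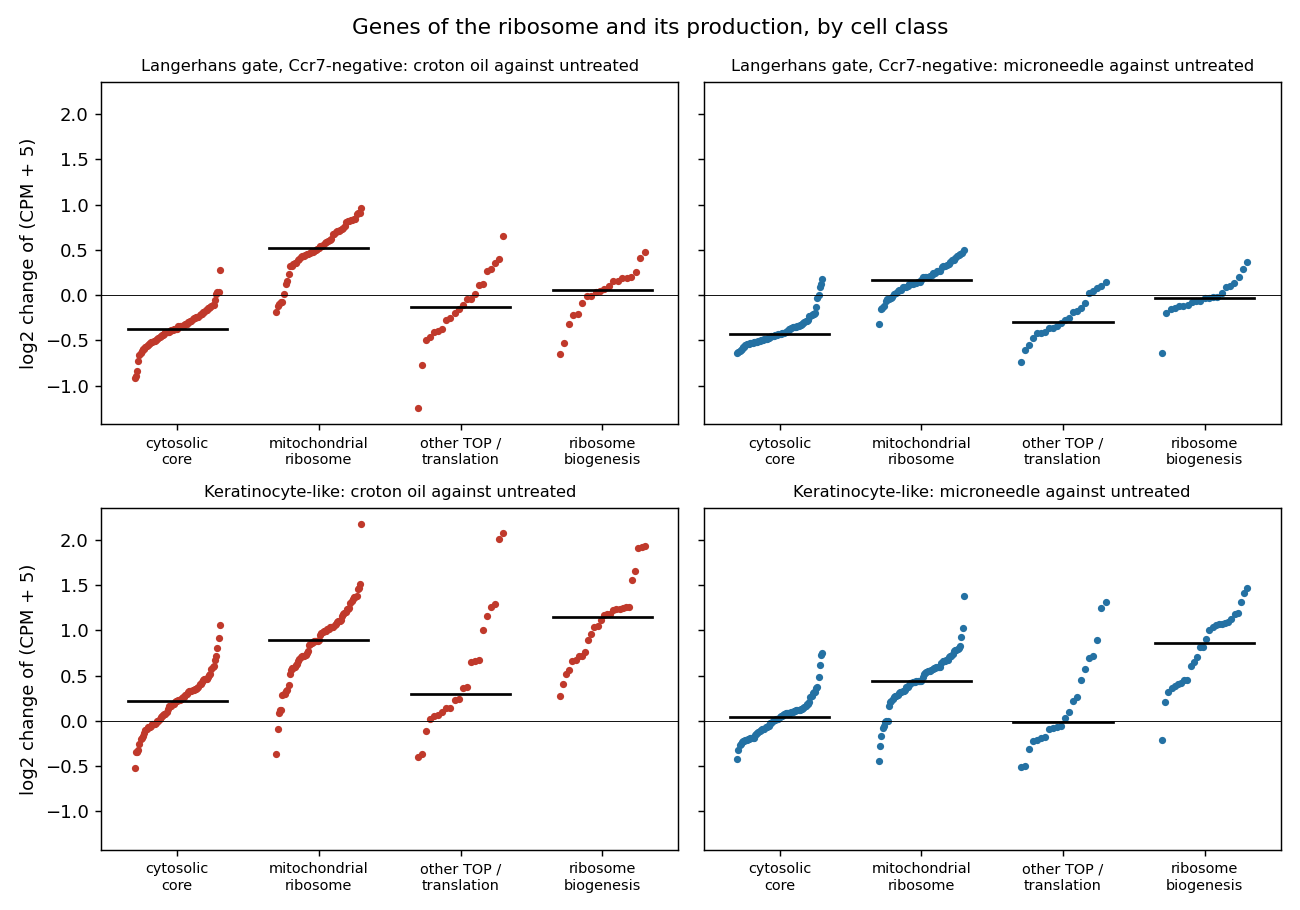
Changes of single genes (points, log2 ratio of CPM plus 5 to the untreated library) in 4 sets of genes, with the median of each set as a line, in Langerhans gate cells without Ccr7 (upper panels) and keratinocyte-like cells (lower panels). In gate cells the median of the cytosolic core lies below 0 and that of the mitochondrial set above it. In keratinocyte-like cells after croton oil the medians are 0.22, 0.90, 0.30 and 1.15 from left to right.

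In keratinocyte-like cells the biogenesis genes rose more than the ribosomal proteins. With croton oil 27 of 28 rose and none fell, with a median of 1.15, where 33.1 and 36.6% of all genes did. With microneedle 25 of 28 rose and none fell, with a median of 0.86, where 32.2 and 22.3% did. Ncl, which encodes nucleolin, went from 378 CPM to 1450 and 1053, and Fbl, which encodes the methyltransferase fibrillarin, from 64.5 to 214 and 137. Mitochondrial ribosomal protein genes rose in 63 of 71 with croton oil and 50 of 69 with microneedle, and 1 fell in each, against the same shares of all genes.

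Neutrophil-like cells had the lowest share of any class described, 2.12% after croton oil (212 cells) and 1.88% after microneedle punches (395 cells). Against gate cells of the croton oil library 77 of 78 members were lower and none higher, where 56.4 and 29.8% of 5950 genes were. In the microneedle library 76 were lower and none higher, where 59.7 and 28.1% of 5973 genes were. The core medians were -2.23 and -2.42. Rps9, known for a part in decoding accuracy, was not lower, at 2754 CPM (2636 to 2875) and 2542 (2465 to 2621), close to the 2483 and 2157 of gate cells. Alone it made up 13% and 13.5% of the member UMIs of these cells, against 3.02 and 2.74% in gate cells. Fau, at 2659 and 2770 CPM against 2560 and 2609, was also near the gate cell level, and so was Rps27 in the microneedle library, at 751 against 831 CPM. Rpl10a stood at 48.1 and 49.3 CPM against 862 and 819. Median depth in these cells was 3042 and 3268 UMIs. The 8 Langerhans cell markers summed to 662 and 1328 CPM in them, against 38236 and 32808 in gate cells. How much of the members' signal is free RNA was not tested.

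Monocyte or macrophage-like cells, present in number only in the microneedle library (383 cells), had 4.76%. In these cells the 9 monocyte and macrophage markers summed to 4710 CPM and the 7 neutrophil markers to 4157 CPM, against 82.4 and 108 CPM in gate cells, and the part of neutrophil transcripts in the lower share was not tested. Of 78 members 69 were lower than in gate cells and 1 higher, where 39.0 and 33.5% of 6544 genes were. The higher member was Rps27l, at 228 against 147 CPM. Rpl12, part of the stalk base that recruits translation factors, went from 1234 CPM in gate cells to 375. A cluster led by T cell genes, outside the gate in the croton oil library (134 cells), had a share of 7.48%.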

How the data were processed

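The deposited matrices hold raw UMI counts for called cells. Cell Ranger 8.0.0 made them, per the file headers, against GRCm39, per the submitters' processing notes. Reads come from the 3′ end of polyadenylated transcripts. Cells with at least 500 genes and at most 10% mitochondrial UMIs were kept. Scrublet's own threshold marked 1, 0 and 0 cells and was taken not to have worked, so the highest scores were removed at 0.8% per 1000 cells (773, 532 and 376 cells). Cells were clustered without the 86 members and the 6 further subunit genes the symbol rule misses (scanpy 1.11.5, 2000 variable genes, 30 components, 15 neighbours, Leiden resolution 0.5, leidenalg 0.10.2). Clusters were named from marker lists; 1 mixed T cell and Langerhans cell cluster and 1 of 12 melanocyte-led cells got no single name. UMIs were summed per library and class. Changes are log2 of (CPM + 5) ratios for genes with a mean of at least 20 CPM and are called from 0.32 upward or -0.32 downward; the added constant shrinks changes of weakly detected genes. The calculation was tested on simulated data. No p-value is given, since each group is 1 library.

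Genes named in a comparison are the 5 highest and 5 lowest members, those departing at least 1.5-fold from the core median, 8 paralogues with their parents, Rpl5, Rpl11, Rps6 and subunit genes outside the symbol rule; other names were chosen after their values were seen. Some genes and a gene group that these rules name are not reported here. Members, lists and rules were chosen with earlier results of these data known. Alternatives were another pseudocount, filter, gate, Ccr7 cut, total, weighting, depth band, thinning, doublet setting and TMM scaling (edgeR 4.0.16), with 3 added after seeing the data. Sequences are RefSeq's, in build GRCm38.p6; coding lengths are those of GENCODE release 39.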

Additional observations from a re-analysis of the deposited data

Results flagged for a closer look

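The croton oil change of the ribosomal protein share pointed in opposite directions in 2 cell classes of the same libraries. The log2 ratio of the summed share to the untreated library was -0.36 in Langerhans gate cells without Ccr7 and 0.20 in keratinocyte-like cells. The difference was not tested, since each group is 1 library.

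Of the single members, 8 were called lower in the gate cells and higher in the keratinocyte-like cells after croton oil: Rpl31, Rpl22, Rpl32, Rpl27a, Rps13, Rps12, Rps23 and Rpl36. They are 10.3% of the 78 members tested in both classes, and 2.80% of all 5279 genes tested in both had such opposite calls. With microneedle no member and 2.46% of all 5369 genes did. Rps12 stood at 2159 and 1605 CPM in untreated and croton oil gate cells and at 3578 and 4535 CPM in the keratinocyte-like cells. Rps13 stood at 1737 and 1367 CPM in the former and at 1899 and 2617 CPM in the latter. These differences were not tested either.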

How the results depend on the processing

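The alternatives were run for 3 comparisons (croton oil and microneedle against untreated, and Ccr7-positive against negative cells after croton oil), in which no direction of the summed share reversed; the other comparisons were not recomputed. For croton oil against untreated the log2 ratio of -0.36 became -0.37 with TMM scaling, -0.36 without removal of high Scrublet scores, -0.45 with the gate at 5% MHC class II, -0.38 when thinned to 3000 UMIs, -0.37 at 8000 to 16000 UMIs, -0.38 with equal weight per cell, -0.35 on a total without MHC class II UMIs, -0.36 without the heat-shock-led cluster and -0.36 outside the Fscn1-led cluster. For microneedle the ratio of -0.42 became -0.47 with TMM scaling, -0.42 on a total without mitochondrial UMIs, -0.42 without Scrublet removal, -0.45 at the 5% gate, -0.42 in Langerhans clusters only, -0.42 when thinned, -0.28 at 8000 to 16000 UMIs, -0.41 with equal weight and -0.42 without the heat-shock-led cluster. Its lower members numbered 27 at 8000 to 16000 UMIs instead of 55, and its higher members 2 without the filter on low genes. For Ccr7-positive against negative cells after croton oil, -0.11 became -0.14 with TMM, -0.061 without Scrublet removal, -0.14 at the 5% gate, -0.12 with Ccr7 at 2 UMIs, -0.10 when thinned, -0.11 at 8000 to 16000 UMIs, -0.12 without MHC class II UMIs and -0.18 within against outside the Fscn1-led cluster. The higher members there numbered 2 at the 5% gate, 2 with Ccr7 at 2 UMIs, 3 when thinned, 3 without the filter and 2 by the Fscn1-led cluster, and the lower ones 1 with TMM, 1 in Langerhans clusters only, 3 with Ccr7 at 2 UMIs, 4 when thinned and 12 by the Fscn1-led cluster, against 1 and 0. The cause of these shifts was not tested.

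Leaving out a replicate was not possible with 1 library per group. No paired analysis was possible because each group has 1 library and no result comes from a test. Thinning left out 102, 32 and 59 shallower gate cells. Counting error is small for the core genes, and the spread between animals or libraries is not measured.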
